A study of Rattus norvegicus with 15 samples.

Results

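The enzymes that supply and limit the building blocks of DNA, the deoxynucleotides, were examined in rat hepatocytes sorted by DNA content. The 9 genes were Rrm1, Rrm2, Rrm2b, Tk1, Tk2, Tyms, Dut, Dctd and Samhd1, and every probe that the array files name for one of them was taken, which gave 13 of the 45598 probes. To be tested, a gene needed a probe that 5 or more of the 15 arrays read well above background, and its brightest such probe represented it. By this rule 7 of the 9 genes were among the 17040 features tested, while Rrm2b and Dctd stood above background on 0 of 15 arrays.

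Ribonucleotide reductase turns ribonucleotides into deoxynucleotides and is built from a large subunit, Rrm1, with a small subunit that is either Rrm2, made in dividing cells around S phase, or Rrm2b, a p53 target that serves cells outside S phase. Thymidine nucleotides come by synthesis from dUMP through thymidylate synthase (Tyms) or by salvage of thymidine through thymidine kinase, cytosolic and tied to S phase for Tk1, mitochondrial for Tk2. Dut removes dUTP and yields dUMP, Dctd makes dUMP from dCMP, and Samhd1 breaks deoxynucleotides down. In the adult liver most hepatocytes rest, and many are polyploid, having replicated their DNA without a full division.

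The samples were 2c, 4c and 8c hepatocytes of adult female Wistar rats, where c is the DNA content of a haploid genome. They had been labelled with a Hoechst dye that binds DNA and separated by a cell sorter. There were 5 independent experiments, each with 1 array per fraction. In weeks, the ages of the rats were 12, 14, 6, 5 and 6 for experiments 1 to 5, and the labels name no treatment and no altered gene. The labels give neither the sorting gates nor the number of animals per experiment. A gate on DNA content takes a cell of lower ploidy that has replicated its DNA together with a resting cell of the next ploidy, so the 4c and 8c fractions may hold both.

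Between 39.5% and 47.3% of the probes on an array were well above background. All 9 hepatocyte markers, among them Alb and Cps1, were well above background on each array. Summed on a linear scale in units of each array's scaling point, 12 Kupffer cell markers ranged from 0.776 to 15 in 2c, from 0.169 to 0.626 in 4c and from 0.133 to 0.568 in 8c. The 12 stellate cell markers ranged from 1.21 to 11.4 in 2c, from 0.283 to 0.816 in 4c and from 0.255 to 0.911 in 8c. The 10 sinusoidal endothelial markers on the array ranged from 0.369 to 2.04 in 2c, from 0.134 to 0.294 in 4c and from 0.116 to 0.321 in 8c. Transcripts of pancreatic acinar cells, 15 of 15 well above background, were abundant on 6 arrays, namely 2c and 8c of experiment 1, all fractions of experiment 2 and 8c of experiment 3. The arrays lay on 2 slides: experiments 1 and 2 with 2c and 4c of experiment 3 on slide 1, the others on slide 2.

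The probes decide which part of a transcript was read, and 3 of the genes, Rrm2, Tk1 and Dut, had a second tested probe. For Rrm2 and Dut the files place it at another position than the brighter probe. Those further probes are shown with the single probe of Rrm2b, the small subunit that was not detected. Each has 60 bases and was designed on rn4, the build named in the array files. The Rrm2 probe lies at chr6:42357941-42358000 on the plus strand, the Tk1 probe at chr3:109023260-109023319 on the minus strand, the Dut probe at chr3:112552056-112553800 on the plus strand and the Rrm2b probe at chr7:73432277-73433204 on the minus strand. The spans of the Dut and Rrm2b probes are longer than the probes themselves.
Rrm2 A_64_P113802: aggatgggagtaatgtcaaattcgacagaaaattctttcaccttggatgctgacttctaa
Tk1 A_44_P250368: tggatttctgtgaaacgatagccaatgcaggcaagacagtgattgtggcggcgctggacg
Dut A_44_P290519: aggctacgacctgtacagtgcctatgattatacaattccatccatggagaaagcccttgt
Rrm2b A_44_P380274: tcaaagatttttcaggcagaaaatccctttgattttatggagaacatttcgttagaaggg
RefSeq places the Tk1 gene on chromosome 10, whereas the file places this Tk1 probe on chromosome 3, so its signal is reported separately. The brighter Rrm2 probe, A_44_P1085313, lies at chr6:42359210-42359269 on the plus strand of rn4 and was printed 10 times per array. The brighter probes of Rrm1 (10 spots) and Tk1 (2 spots) have no position in the files.

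Transcription of several of these genes is known to be driven in S phase by E2F factors and, for genes that peak later, through CHR elements and CCAAT boxes, so the 250 bases before the start were searched. RefSeq promoters on GRCr8 were at hand for 7 of the 9 genes. The motifs were E2F, spelled TTGGCGC, alternatively TTCCCGC, alternatively TTCGCGC, alternatively TTGCCGC, then CHR, spelled TTTGAA, alternatively TTCGAA, and lastly the CCAAT box with only those 5 letters. Both strands were read. Over all 33469 promoters of the table, 7.59% held an E2F match, 17.4% a CHR match and 34% a CCAAT match. The windows shown are those of Rrm1 and Tk1, which passed a test between fractions, and of Tyms and Tk2, which did not. Rrm1 held all 3 motifs, Tyms an E2F match, Tk1 none of them and Tk2 a CHR match. Capitals mark the matches, and no match overlapped another. The windows are chr1:166235654-166235903 (plus strand) for Rrm1, chr9:120776084-120776333 (minus strand) for Tyms, chr10:103544778-103545027 (minus strand) for Tk1 and chr19:715071-715320 (plus strand) for Tk2, each printed in the direction of the gene.
Rrm1 promoter: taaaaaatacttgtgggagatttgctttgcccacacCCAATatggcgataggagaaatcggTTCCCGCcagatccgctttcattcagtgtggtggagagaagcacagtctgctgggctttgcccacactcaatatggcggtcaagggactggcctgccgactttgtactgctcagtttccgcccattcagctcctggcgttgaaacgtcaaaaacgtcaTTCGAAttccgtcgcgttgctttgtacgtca
Tyms promoter: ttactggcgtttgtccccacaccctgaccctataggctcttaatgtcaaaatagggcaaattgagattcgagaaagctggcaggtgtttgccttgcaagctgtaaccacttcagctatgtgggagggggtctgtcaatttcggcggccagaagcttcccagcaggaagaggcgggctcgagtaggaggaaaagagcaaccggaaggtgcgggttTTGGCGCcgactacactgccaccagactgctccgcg
Tk1 promoter: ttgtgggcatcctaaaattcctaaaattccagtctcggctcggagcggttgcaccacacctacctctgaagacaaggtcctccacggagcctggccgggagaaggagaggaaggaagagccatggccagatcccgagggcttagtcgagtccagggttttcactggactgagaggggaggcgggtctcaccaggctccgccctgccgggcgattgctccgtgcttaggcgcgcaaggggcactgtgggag
Tk2 promoter: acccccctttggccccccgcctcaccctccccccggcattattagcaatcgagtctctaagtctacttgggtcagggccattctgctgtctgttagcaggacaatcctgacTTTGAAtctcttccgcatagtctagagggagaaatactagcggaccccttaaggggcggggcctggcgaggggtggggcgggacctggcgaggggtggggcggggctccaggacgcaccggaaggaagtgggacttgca
In Rrm1 the CCAAT match began 214 bases, the E2F match 189 bases and the CHR match 31 bases before the start. The Tyms E2F match began 36 bases and the Tk2 CHR match 139 bases before the start. Of the other promoters, Dctd held an E2F match 26 bases before the start, 1 of the 2 Dut windows held a CHR match and Samhd1 held none. A match describes these letters only.

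The small subunit Rrm2 showed the widest differences of the family. Levels are log2 signals in which 0 is the array's 75th percentile, taken over those probes that every array read well above background, so they compare arrays for a gene and not genes with each other. In experiments 1 to 5, Rrm2 had levels of -2.53, -5.61, -2.67, -0.54 and -1.80 in 2c hepatocytes. In 4c hepatocytes they were -3.92, -7.71, -3.70, -1.12 and -3.70, where the array of experiment 2 was not well above background. In 8c hepatocytes they were 0.35, -2.31, 0.67, 0.99 and 0.99. Within each of the 5 experiments 8c was highest and 4c lowest, although the groups overlapped, since the 8c array of experiment 2 lay below some 2c and 4c arrays of other experiments. The same order held in all 5 experiments for Rrm1 and Tk1 too, 3 of the 7 tested genes, against 0.229% of the 17030 features with a value on every array.

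**Figure D1:**
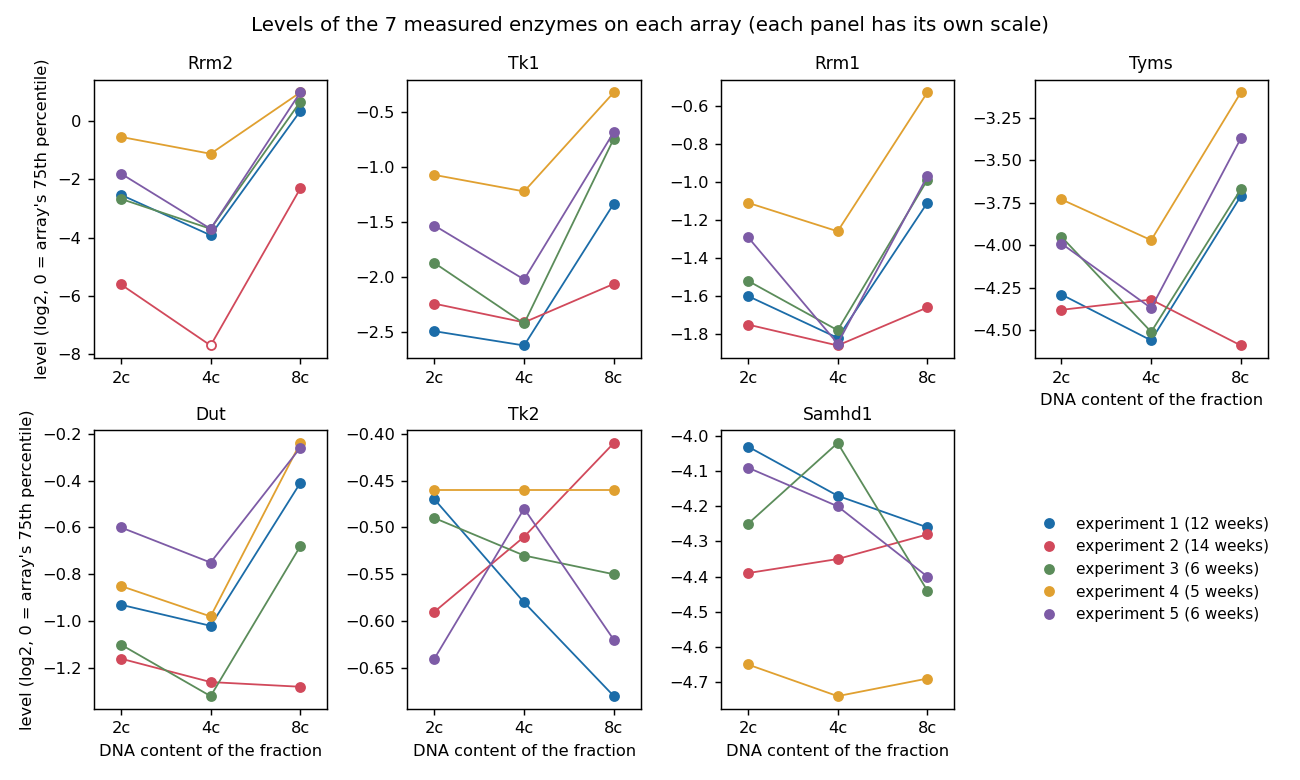
Levels of the 7 measured enzymes (log2, 0 is the array's 75th percentile) in the 2c, 4c and 8c fractions, with a line for each of the 5 experiments and an open point where the probe was not well above background. Rrm2, Tk1 and Rrm1 form a V with 4c lowest and 8c highest in each experiment, while Tk2 and Samhd1 move within narrow scales.

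Tested across all features with limma and the experiment as a block, Rrm2 was 6.81-fold higher in 8c than in 2c hepatocytes, a log2 difference of 2.77 (SE 0.36, adjusted p = 0.0042). Against 4c the 8c level was 18-fold higher, a log2 difference of 4.17 (SE 0.36, adjusted p = 0.00058). With the 1 dim 4c array set at that array's detection floor, the difference was 3.81, or 14.1-fold. With normexp background correction the difference was 2.63 from 4c and 1.97 from 2c, and with the mean of both Rrm2 probes it was 3.37 from 4c, each still past the threshold. The difference of 4c from 2c was -1.40 (SE 0.36, adjusted p = 0.103), which did not pass, and was -1.05 with the dim array at its floor. Rrm2 in 4c was 6.89-fold lower than the mean of 2c and 8c, a log2 difference of -2.78 (SE 0.31, adjusted p = 0.01), or -1.65 with normexp and -2.01 with averaged probes. The 6.89-fold value takes the dim 4c array at its reading of -7.71, under its floor of -5.93. In bulk RNA, more cells that carry a transcript and more of it per cell cannot be told apart.

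Without the block, the Rrm2 differences kept their size, but with adjusted p = 0.697 for 8c against 2c and 0.376 for 8c against 4c. Within slide 1 the difference of 8c from 2c was 3.21 (adjusted p = 0.0736) and within slide 2 it was 2.16 (adjusted p = 0.473). When the 6 arrays rich in acinar transcripts were dropped it was 2.20 (adjusted p = 0.486), and the difference of 8c from 4c was 3.36 (adjusted p = 0.341). In each of these settings fewer arrays or no pairing entered, and none of the 7 genes passed.

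The second Rrm2 probe, A_64_P113802, which is printed above, was well above background on 1 of 5 arrays in 2c, 1 of 5 in 4c and 4 of 5 in 8c. It reached 5 arrays above background only with its 8c arrays, so its test is not used. With the dim arrays at their floors its 8c signal was 2.24-fold over 2c and 2.73-fold over 4c.

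**Figure D2:**
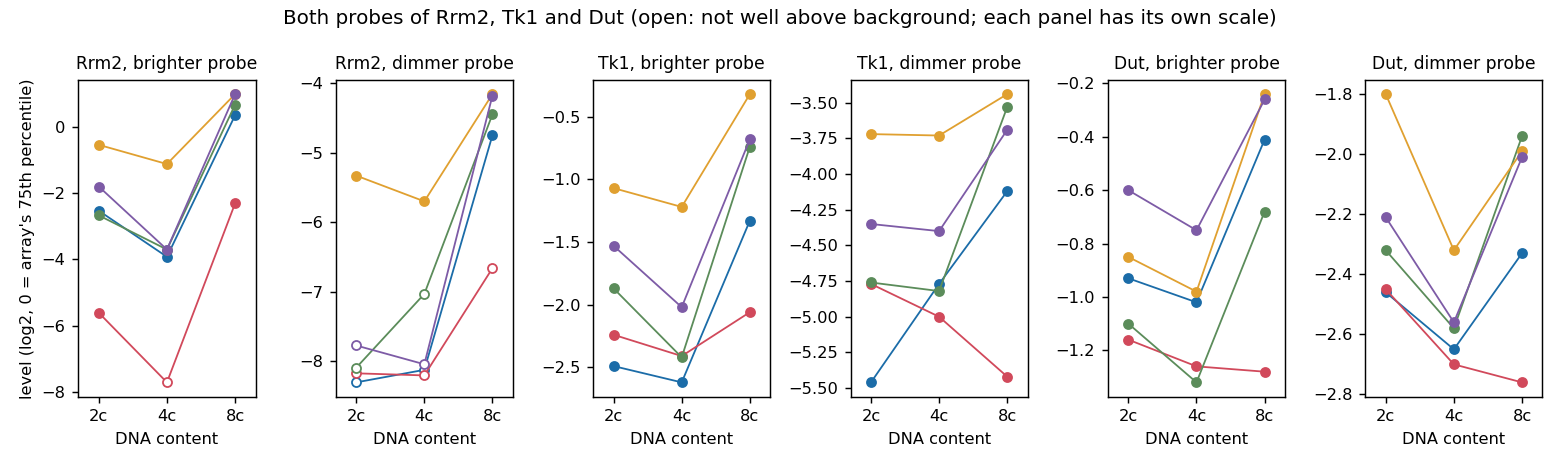
Both probes of Rrm2, Tk1 and Dut in the 2c, 4c and 8c fractions (log2 level, a line per experiment in the same colours as the plot of all levels, open points not well above background, each panel with its own scale). The brighter Rrm2 probe is highest in 8c in each experiment. The dimmer Rrm2 probe, whose test is not used, was not well above background on any array of experiment 2. On all 6 probes the 8c array of experiment 2 is the lowest of the 8c arrays.

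The large subunit Rrm1 moved less. Its levels in experiments 1 to 5 were -1.60, -1.75, -1.52, -1.11 and -1.29 in 2c hepatocytes, -1.82, -1.86, -1.78, -1.26 and -1.85 in 4c and -1.11, -1.66, -0.99, -0.53 and -0.97 in 8c. Each 8c array lay above its own 4c and 2c arrays, but the groups overlapped across experiments. Rrm1 was 1.58-fold higher in 8c than in 4c hepatocytes, a log2 difference of 0.66 (SE 0.10, adjusted p = 0.0143). Its difference of 8c from 2c was 0.40 (SE 0.10, adjusted p = 0.0744) and that of 4c from 2c was -0.26 (SE 0.10, adjusted p = 0.246), and neither passed. A second Rrm1 probe was above background on 2 arrays in 2c, 0 in 4c and 1 in 8c, so it was not tested.

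The 8c minus 2c difference of Rrm2 exceeded that of Rrm1 in 5 of 5 experiments, by 2.37 ± 0.86 on the log2 scale (SD, n = 5). The two-sided exact sign-flip permutation test gave p = 0.0625, the smallest that 5 experiments allow, so this design cannot take it under the threshold (adjusted p = 0.0625). The alternative small subunit Rrm2b could not be set beside Rrm2. Its probe had levels between -8.36 and -7.19 in 2c, between -8.45 and -7.15 in 4c and between -8.40 and -6.71 in 8c hepatocytes, not well above background on any array.

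Of the enzymes that make thymidine nucleotides, the cytosolic kinase Tk1 changed. Its levels in experiments 1 to 5 were -2.49, -2.24, -1.87, -1.07 and -1.53 in 2c hepatocytes. They were -2.62, -2.41, -2.42, -1.22 and -2.02 in 4c, and -1.33, -2.06, -0.74, -0.32 and -0.68 in 8c. Each experiment had its highest Tk1 level in 8c, though the gain in experiment 2 was small. Tk1 was 1.76-fold higher in 8c than in 2c, a log2 difference of 0.81 (SE 0.16, adjusted p = 0.0294), and 2.16-fold higher in 8c than in 4c, a difference of 1.11 (SE 0.16, adjusted p = 0.0111). The difference of 4c from 2c was -0.30 (SE 0.16, adjusted p = 0.404).

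The second Tk1 probe, the one placed on chromosome 3, was above background on all arrays and gave 0.57 for 8c against 2c (SE 0.25, adjusted p = 0.329) and 0.50 for 8c against 4c (SE 0.25, adjusted p = 0.669). In experiment 2 this probe stood at -4.77 in 2c, -5.00 in 4c and -5.42 in 8c, so 8c was lowest there, unlike with the brighter probe. With the mean of both probes Tk1 did not pass in either comparison (0.69 with adjusted p = 0.133, and 0.81 with adjusted p = 0.202). The call on Tk1 therefore depends on which probe represents it.

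The mitochondrial kinase Tk2 had levels between -0.64 and -0.46 in 2c, between -0.58 and -0.46 in 4c and between -0.68 and -0.41 in 8c hepatocytes. Its difference of 8c from 2c was -0.01, with a 95% interval of -0.16 to 0.14 (adjusted p = 0.949). The interval of the difference of 8c from 4c was -0.18 to 0.12 (adjusted p = 0.925). The 8c minus 2c difference of Tk1 exceeded that of Tk2 in 5 of 5 experiments, by 0.83 ± 0.53 (SD, n = 5), again with an exact p = 0.0625, the smallest possible. In experiment 2 both differences were 0.18 at the digits given, so the order there rests on a gap near 0. With normexp the mean was 0.64, and the sign-flip permutation test gave adjusted p = 0.125 for this pair and for Rrm2 with Rrm1.

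Tyms, which methylates dUMP to dTMP, had levels of -4.29, -4.38, -3.95, -3.73 and -3.99 in 2c hepatocytes, -4.56, -4.32, -4.51, -3.97 and -4.37 in 4c and -3.71, -4.59, -3.67, -3.10 and -3.37 in 8c. In 4 of 5 experiments 8c was highest and 4c lowest, and in experiment 2 the 8c array was the lowest. The difference of 8c from 2c was 0.38 (SE 0.16, adjusted p = 0.306) and that of 8c from 4c was 0.66 (SE 0.16, adjusted p = 0.187).

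Dut, which clears dUTP, followed a similar course. Its levels were -0.93, -1.16, -1.10, -0.85 and -0.60 in 2c, -1.02, -1.26, -1.32, -0.98 and -0.75 in 4c and -0.41, -1.28, -0.68, -0.24 and -0.26 in 8c. Again 4 of 5 experiments had 8c on top and 4c lowest, with experiment 2 the exception. The differences were 0.35 for 8c against 2c (SE 0.11, adjusted p = 0.145) and 0.49 for 8c against 4c (SE 0.11, adjusted p = 0.11). The second Dut probe gave 0.04 (SE 0.11) and 0.35 (SE 0.11) in these comparisons, so the 2 probes disagree on 8c against 2c.

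Dctd, the other source of dUMP, had levels between -8.79 and -6.54 in 2c, between -9.10 and -7.97 in 4c and between -9.08 and -7.99 in 8c hepatocytes, not well above background on any array. Samhd1, which degrades deoxynucleotides, had levels between -4.65 and -4.03 in 2c, between -4.74 and -4.02 in 4c and between -4.69 and -4.26 in 8c. Its difference of 8c from 2c was -0.13, with a 95% interval of -0.32 to 0.06 (adjusted p = 0.524). In experiment 4, of the youngest rats, Samhd1 was lowest in every fraction, while Rrm2, Tk1, Rrm1 and Tyms were highest or tied for highest in every fraction.

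**Figure D3:**
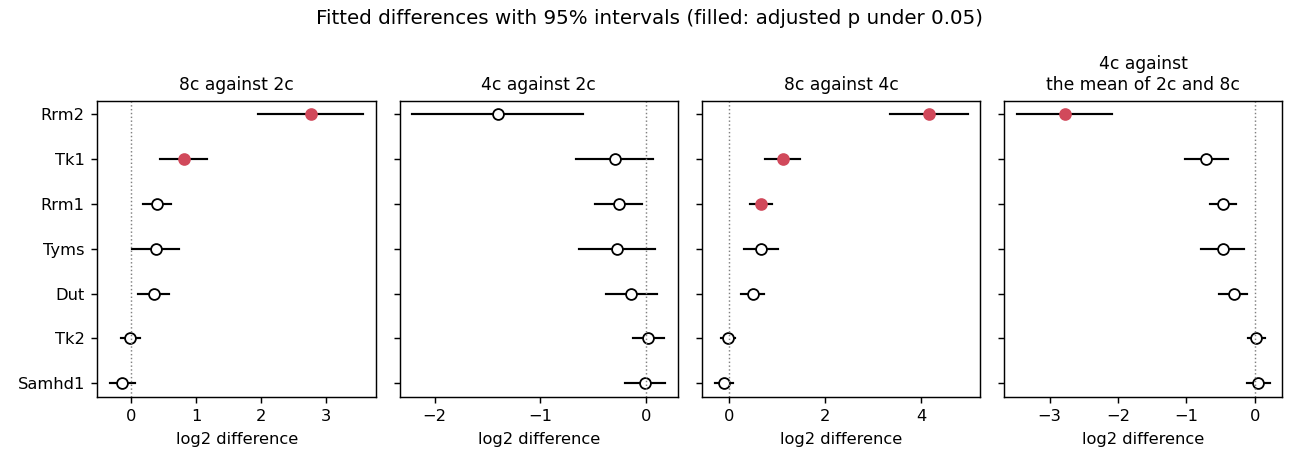
Fitted log2 differences of the 7 tested enzymes with 95% intervals in the 4 comparisons, filled where the adjusted p was under 0.05. Rrm2 is filled in 3 comparisons, Tk1 in 2 and Rrm1 in 8c against 4c, and the Tk2 and Samhd1 intervals hold 0 in each comparison.

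Counted over the 7 tested genes, 2 were higher in 8c than in 2c hepatocytes (Rrm2 and Tk1), where 2.34% of all features passed in either direction and 0.81% were higher. With 3 genes (Rrm2, Tk1 and Rrm1) higher in 8c than in 4c, the background was 0.64% in either direction and 0.628% higher. In 4c against 2c 0 passed by limma, where 1.26% of all features did, and 2 of the 7 (Rrm2 and Rrm1) had an unadjusted p under 0.05, as had 15.9% of all features. At that unadjusted level 5 of the 7 stood in 8c against 2c (all features 15%) and 5 in 8c against 4c (all features 7.8%). Of the 7, Rrm2 alone differed between 4c and the mean of 2c and 8c, where 0.405% of all features passed in either direction and 0.387% were lower. The median log2 difference of the 7 genes was 0.38 for 8c against 2c (all features -0.02), -0.26 for 4c against 2c (all features -0.03) and 0.66 for 8c against 4c (all features 0.01). No gene of the 7 had groups free of overlap, where 1.36% of all features did in 8c against 2c, 1.31% in 4c against 2c and 0.558% in 8c against 4c.

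Kupffer, stellate and sinusoidal endothelial markers differed between the same groups, with 7 of 8, 6 of 8 and 4 of 8 tested markers lower in 8c than in 2c. Against 2c, 6 of 8, 6 of 8 and 3 of 8 were lower in 4c, with median log2 differences of -3.3, -3.81 and -2.34. Of all features, 2.34% passed in 8c against 2c and 1.26% in 4c against 2c, in either direction. In 8c against 4c 0 of these 24 passed by limma (2 at an unadjusted p under 0.05). The median log2 differences there were -0.29 for Kupffer, -0.62 for stellate and -0.13 for sinusoidal endothelial markers. The part of these markers in the differences between fractions, 8c against 4c included, was not tested. The summed acinar markers were highest in experiment 2, at 1060 in 2c, 182 in 4c and 620 in 8c, and that experiment had the lowest Rrm2 level of each fraction. Over the fractions, the 15 acinar markers had median log2 differences of 0.33 for 8c against 2c, -2.69 for 4c against 2c and 2.96 for 8c against 4c. By these medians 4c was lowest, as for Rrm2, Tk1 and Rrm1, and 0 of the 15 passed by limma in each comparison. The part of the acinar transcripts in the differences between fractions and in the low values of experiment 2 was not tested.

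Several calls moved with experiment 2. When its 8c array was left out, 5 of the 7 passed in 8c against 2c, namely Rrm2, Tk1, Rrm1, Dut and Tyms. These 5 also passed in 8c against 4c. Of all 17040 features, 323 passed in 8c against 2c and 142 in 8c against 4c in this setting. Rrm2 passed in 8c against 2c and in 8c against 4c in each of the 20 settings that left out 1 array or 1 experiment, with the highest adjusted p at 0.0405 and 0.0154. Tk1 lost its call in 13 of these 20 settings in 8c against 2c and in 6 in 8c against 4c, and Rrm1 lost its call in 8c against 4c in 11. Over the 20 settings the Tk1 differences lay between 0.70 and 0.99 in 8c against 2c and between 0.97 and 1.30 in 8c against 4c, and that of Rrm1 in 8c against 4c lay between 0.60 and 0.78. For Rrm2 in 4c against the mean of 2c and 8c, the call was lost in 3 of the 20, without experiment 1, 3 or 5 (highest adjusted p = 0.0897 by limma). Rrm2 passed in 4c against 2c in 2 of the 20, without experiment 4 (adjusted p = 0.0255 by limma) and without its 8c array.

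The difference of 8c from 2c changed with age by 0.09 per week for Rrm2 (SE 0.09), and by between -0.06 and 0.02 per week for the other 6 genes. For Rrm2 it was 0.33 per week on slide 1 alone and 1.48 per week without the arrays rich in acinar transcripts, both with adjusted p = 1 by limma. By limma 0 of the 7 passed, 0 also at an unadjusted p under 0.05, and over all 17040 features 0% passed, with 820 at an unadjusted p under 0.05. In the rats of 12 and 14 weeks Rrm2 was 3.08 higher in 8c than in 2c on average, and in those of 5 and 6 weeks 2.56. With 5 experiments, age, slide and acinar transcripts moved together in part and cannot be told apart.

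Other genes of nucleotide metabolism were read beside the 9. Of 74 genes in 9 lists, from the synthesis of purines and pyrimidines to transport and catabolism, 69 were tested, and 0 were higher and 1 lower in 8c than in 2c, where 2.34% of all features passed. The gene that fell was Glrx, a glutaredoxin that can reduce ribonucleotide reductase, with a log2 difference of -0.41 (SE 0.08, adjusted p = 0.0297). In 8c against 4c 1 rose, Dctpp1, which clears modified and surplus dCTP, by 0.63 (SE 0.10, adjusted p = 0.0235), and 0 fell, where 0.64% of all features passed. In 4c against 2c 0 passed by limma, with 17 of the 69 at an unadjusted p under 0.05, as were 15.9% of all features. The median of the 69 genes was -0.02 for 8c against 2c, -0.07 for 4c against 2c and 0.04 for 8c against 4c.

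In the thymidylate folate cycle, which feeds Tyms, 0 of 4 passed by limma in 8c against 2c (0 at an unadjusted p under 0.05), with 0.10 for Shmt1 and -0.16 for Mthfd1. Among 8 tested nucleoside and nucleotide kinases 0 passed (1 unadjusted), with 0.11 for Nme2. In pyrimidine synthesis 0 of 6 passed (2 unadjusted), with 0.11 for Cmpk1 and -0.18 for Ctps2, and in purine synthesis and salvage 0 of 14 (3 unadjusted), with -0.25 for Hprt1 and -0.06 for Aprt. In catabolism 0 of 9 passed (1 unadjusted), with -0.07 for Pnp and 0.06 for Upb1. In transport 0 of 6 passed (2 unadjusted), with 0.04 for Slc29a1 and -0.54 for Slc28a2, and in mitochondrial DNA upkeep 0 of 8 (0 unadjusted), with -0.09 for Mpv17 and 0.05 for Polg2.

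Among 17 tested genes known to control the members, 4 were higher in 8c than in 2c, where 0.81% of all features were. Ccna2, 1 of these 4, reached 5 arrays above background only with its 8c arrays, so its test is not used. Of the 15 genes that did not need their 8c arrays to be tested, 3 were higher in 8c than in 2c and 2 in 8c than in 4c. Cdk1, the mitotic kinase, was higher by 2.99 (SE 0.34, adjusted p = 0.0025) and Foxm1, a transcription factor of G2 genes, by 1.11 (SE 0.19, adjusted p = 0.0156). Ccna2, a cyclin of S and G2 phase, was read above background on 5 of 5 8c, 3 of 5 2c and 1 of 5 4c arrays. Cdkn1a, the p53 target that stops the cell cycle, was higher by 0.76 (SE 0.14, adjusted p = 0.0244). In 8c against 4c 3 of the 17 were higher, where 0.628% of all features were: Cdk1 by 4.29, Foxm1 by 1.34, and Ccna2, whose test is not used. Cdk1 was above background on 5 of 5 8c, 4 of 5 2c and 4 of 5 4c arrays. With dim arrays at their floors, the 8c signal of Cdk1 was 7.43-fold over 2c and 15.1-fold over 4c. That of Ccna2 was 4.93-fold over 2c and 7.76-fold over 4c.

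Genes of the replication fork, the machinery that uses deoxynucleotides, passed in both directions. Of 13 tested, 1 was higher in 8c than in 2c, the DNA ligase Lig1 (0.34, SE 0.07, adjusted p = 0.0409), and 1 was lower, the helicase subunit Mcm2 (-0.71, SE 0.12, adjusted p = 0.0156). In 4c against 2c 4 were lower, with log2 differences of -1.27 for Mcm3, -1.11 for Mcm5, -0.64 for Mcm2 and -0.45 for the primase subunit Prim1. In 8c against 4c 3 were higher, the helicase factor Gins1 by 0.90, Lig1 by 0.55 and Prim1 by 0.46. Of all features, 2.34% passed in 8c against 2c, 1.26% in 4c against 2c and 0.64% in 8c against 4c, in either direction. Of 15 tested mitosis genes, 12 were higher in 8c than in 2c and 11 were higher in 8c than in 4c, where 0.81% and 0.628% of all features were. In 4c against 2c 0 passed by limma (4 at an unadjusted p under 0.05). These counts are no support for a direction, since 8 of the 15 reached 5 arrays above background only with their 8c arrays. Of the other 7, 5 were higher in 8c in both comparisons (Plk1, Ccnb2, Mki67, Cdc20 and Bub1), a split made after the values were seen.

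Among the mitosis genes, Plk1 did not need its 8c arrays to be tested and had a fitted difference of 8c from 2c of 3.13. Ccnb1, Ect2 and Prc1 reached 5 arrays above background only with their 8c arrays, so their tests are not used. Plk1 was well above background on 5 of 5 8c arrays and 4 of 5 2c arrays, Ect2 and Prc1 on 5 8c and 2 2c arrays each, and Ccnb1 on 4 8c arrays and 1 2c array. With dim 2c arrays at their floors, 8c was 8.63-fold over 2c for Plk1 and 6.08-fold for Ccnb2. In the same way it was 6.02-fold for Ccnb1, 5.32-fold for Ect2, 5.22-fold for Prc1 and 6.71-fold for Nusap1. These last 4 genes all needed their 8c arrays to be tested, so their values are no support for a direction.

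**Figure D4:**
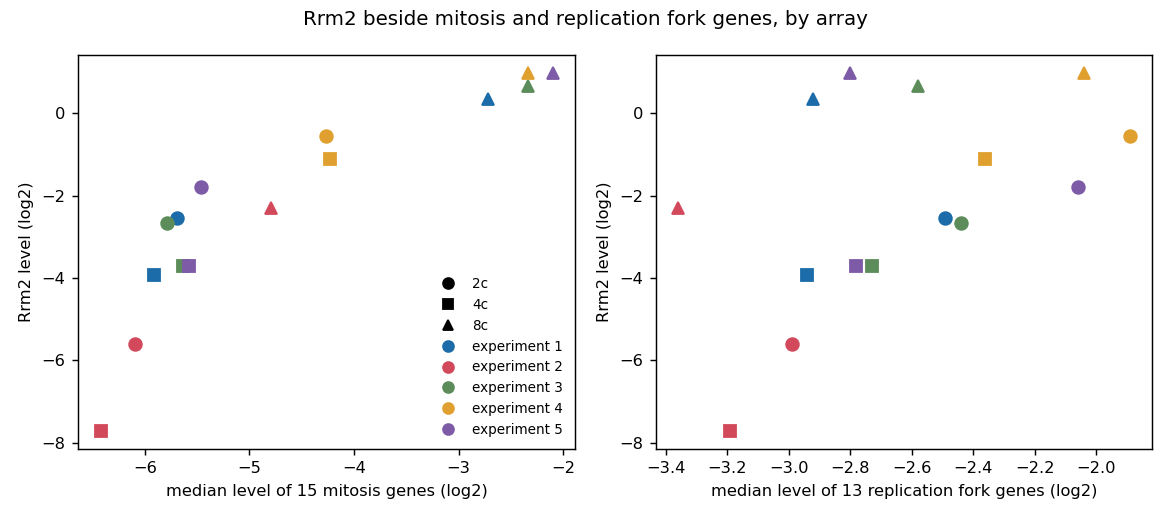
Rrm2 level (log2) on each of the 15 arrays against the median level of 15 mitosis genes (left) and of 13 replication fork genes (right), with the fraction as the symbol and the experiment as the colour. On the left the 8c arrays of 4 experiments stand apart at the top right with mitosis medians between -2.72 and -2.10, and on the right each 8c array has a higher Rrm2 level than the 2c array of its experiment at a lower fork median. The mitosis median is no support for a direction, since 8 of its genes needed their 8c arrays to be tested.

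Set side by side by array, the median of the mitosis genes was -5.69, -6.09, -5.79, -4.27 and -5.46 in 2c, -5.91, -6.42, -5.64, -4.23 and -5.58 in 4c and -2.72, -4.79, -2.34, -2.34 and -2.10 in 8c. The median of the fork genes was -2.49, -2.99, -2.44, -1.89 and -2.06 in 2c, -2.94, -3.19, -2.73, -2.36 and -2.78 in 4c and -2.92, -3.36, -2.58, -2.04 and -2.80 in 8c. The mitosis median was thus highest in 8c in every experiment and the fork median highest in 2c, while single genes of both lists departed from this, such as Lig1 and Aurka. The mitosis median is no support for a direction, since 8 of its genes reached 5 arrays above background only with their 8c arrays. In experiment 2 it lay below the array's floor in 2c (floor -5.91) and in 4c (floor -5.93). It lay close to the floor in 2c and 4c of experiment 3 (floors -5.83 and -5.66) and in 2c of experiment 5 (floor -5.49). Rrm2 was lower in 4c than in 2c in every experiment, as the fork median was.

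The genes whose levels ran most like those of a member were ranked by Pearson's r over the 15 arrays. The mean of each experiment was subtracted first. The pool was 9910 tested genes with a symbol that were well above background on all 8c arrays. It left out genes dim in 8c and could hold genes read mainly in 8c, so these lists are no support for a direction. For Rrm2 the nearest genes were Cdk1 (0.995), the proliferation marker Mki67 (0.984), the condensin subunit Ncaph (0.976), Cdca3 (0.971) and the centromere chaperone Hjurp (0.971). For Rrm1 they were Mdc1 (0.987), Cks2 (0.978), Ska2 (0.976), Hmgb2 (0.967) and Ddx11 (0.966). For Tk1 they were Racgap1 (0.972), Mdc1 (0.971), the histone variant H2az1 (0.970), Bub1 (0.968) and Dctpp1 (0.964).

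Another member appeared among the 5 nearest genes once, Dut for Tyms (0.951), beside Cks2 (0.956), Lmnb2 (0.946), H2az1 (0.938) and Cinp (0.937). For Dut they were Ska2 (0.974), Cks2 (0.961), the thymidylate kinase Dtymk (0.959), Selenoh (0.953) and H2az1 (0.952). For Tk2, with little spread of its own, r was lower, at 0.888 for Paqr3, 0.884 for Mmp17, 0.842 for Wbp4, 0.837 for Tirap and 0.814 for Lepr. For Samhd1 it was 0.941 for Snapc1, 0.920 for Pkib, 0.903 for C1h19orf47, 0.898 for Faslg and 0.891 for Scn2b. These coefficients describe arrays that share an experiment and a scaling, and carry no test.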

How the data were processed

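RNA of sorted hepatocytes was hybridised to 15 one-colour Cy3 arrays. The deposited intensity of each spot is on a linear scale, already background-subtracted by the authors with Agilent Feature Extraction, version 11.5.1.1 per the file headers and 10.7.3.1 per the submitters' processing notes. The deposited value table holds the same processed signal (median ratio 1 on each array). Control spots (4259 of 62976) and outlier spots were left out, spots of a probe averaged, and log2 signals scaled to the 75th percentile over 16194 probes well above background on all arrays. No spot was saturated.

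Differences were tested with limma 3.58.1 in R 4.3.3 over 17040 features (lmFit, eBayes, Benjamini-Hochberg, two-sided, threshold 0.05), with the experiment as a block, since all fractions of an experiment number are of rats of 1 age in an independent experiment. Deviations from group means correlated with a median r of 0.59 between arrays of 1 experiment (15 pairs, 0.04 to 0.79) and -0.16 between experiments. Nothing says that the arrays of a group came from separate animals within an experiment, and their number limits the precision. Further probes were tested in a fit over all 20937 tested probes.

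All 9 members are named. A role list gives up to 4 passing genes per comparison or its 2 brightest, with other genes of short lists in counts, and 5 genes most like each tested member are named. The value of 1 gene this rule names is not reported here. Members, lists and tests were chosen with earlier results of these data known. The fits were tested on simulated data. Probe positions are those of rn4 in the files, for which no annotation was used, and promoters are from RefSeq on GRCr8. The alternatives are named below.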

Additional observations from a re-analysis of the deposited data

Results flagged for a closer look

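Among the values of each gene in each group of 5 arrays, 2 stood apart by Dixon's ratio, the gap to the nearest array over the range of the group (critical value 0.71). Chance sets apart about 1 in 20 such groups. The Rrm1 level of the 4c array of experiment 4, -1.26, was far above the other 4c arrays, with a ratio of 0.87. The Rrm2 level of the 8c array of experiment 2, -2.31, was far below the other 8c arrays, with a ratio of 0.805. On that 8c array the summed acinar markers reached 620. Without it Rrm2, Tk1, Rrm1, Dut and Tyms passed both in 8c against 2c and in 8c against 4c. Of all 17040 features, 323 and 142 passed in these comparisons.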

How the results depend on the processing

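Differences of the 7 genes were recomputed under 34 alternative settings. Leaving out 1 array or 1 experiment in turn gave between 1 and 5 genes in 8c against 2c and between 0 and 1 in 4c against 2c. It gave between 1 and 5 in 8c against 4c and between 0 and 5 in 4c against the mean of 2c and 8c. Over all 17040 features these settings gave between 103 and 525, 3 and 543, 51 and 142, and 0 and 134, in the same order. The scaling by the median, quantile normalization, normexp, the deposited value table and every probe as a feature kept the called genes, although normexp reduced the Rrm2 differences to 1.97 in 8c against 2c, 2.63 in 8c against 4c and -1.65 in 4c against the mean, and the 75th percentile over all probes added Rrm1 in 8c against 2c. With no filter on dim probes 1 gene (Rrm2) passed in 8c against 2c, 1 (Rrm2) when a gene's probes were averaged, and with features well above background on all arrays 1 (Tk1), since that filter drops Rrm2, and 0 in 4c against the mean. In 8c against 4c, Rrm1 did not pass with no filter (adjusted p = 0.0693 by limma) and Tk1 did not with averaged probes (0.202), and the cause was not tested.

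Without the replicate block 0 genes passed in any comparison, with adjusted p of 0.808 for Tk1 in 8c against 2c, and 0.843 for Tk1 and 0.562 for Rrm1 in 8c against 4c. The Rrm2 levels of the 5 experiments had an SD of 1.87 in 2c, 2.36 in 4c and 1.39 in 8c. The counts were also 0 in each comparison with the slide as the block, on slide 1 alone, on slide 2 alone and without the arrays with acinar transcripts, the last 3 with fewer arrays, and the cause was not tested. In these 4 settings the 8c against 4c difference of Rrm1 was 0.58, 0.47, 0.81 and 0.79, and that of Tk1 was 0.92, 0.89, 1.12 and 1.16.

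Signs turned for differences near 0. Leaving out 1 array or 1 experiment, the difference of 8c from 2c in Tk2 lay between -0.06 and 0.03, that of 4c from 2c between -0.02 and 0.06, that of 8c from 4c between -0.07 and 0, and 4c against the mean between -0.01 and 0.04. Samhd1 lay between -0.08 and 0.02 in 4c against 2c and between -0.02 and 0.08 in 4c against the mean. The change with age lay between -0.01 and 0.14 for Rrm2, -0.08 and 0.04 for Tk1, -0.09 and 0.02 for Tyms, -0.07 and 0 for Dut, -0.05 and 0 for Rrm1, -0.03 and 0.02 for Tk2, and -0.01 and 0.04 for Samhd1. For Tk2 the sign of 8c against 2c turned with the median (0.03), all probes (0.06) and slide 2 (0.01), and on slide 1 those of 4c against the mean (-0.01), of 4c against 2c (-0.02) and of 8c against 4c (0) turned. For Samhd1 the sign of 4c against 2c turned with the median (0.02), all probes (0.05), quantile normalization (0.08), slide 1 (0.04) and without acinar arrays (0.02), and that of 4c against the mean with normexp (-0.03) and slide 2 (-0.01). The change with age turned under normexp for Rrm2 (-0.05) and Tyms (0.01), and without acinar arrays for Samhd1 (-0.18), Tk1 (0.08) and Tk2 (-0.04).

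Over all features, 8c against 2c had 138 higher and 261 lower, but 224 higher and 189 lower with the 75th percentile over all probes and 186 and 213 with the median. Signal over background limits the 4c level of Rrm2, dim on 1 array, and leaves Rrm2b and Dctd unread.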
